A study of Rattus norvegicus with 10 samples.

Results

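The Rhesus family of ammonia channels was followed in RNA of the rat submandibular gland, one of the large glands that make saliva. All samples came from male animals at 14 weeks. The family was read as the 4 genes Rhag, Rhbg, Rhcg and Rhd, found on the array by the RefSeq accession of each probe. It was selected on the higher signal of Rhag in the hypertensive strain, so that difference is given as a description and carries no test. Each gene had 1 probe spotted once, 4 of 30367 probes in all, and all 4 probes passed the filter on dim signals. The groups were 5 samples of spontaneously hypertensive rats (SHR), inbred for raised blood pressure, and 5 of Wistar-Kyoto rats (WKY), the normotensive strain of the same origin. No treatment is given for either strain, total RNA of each sample was labelled with Cy3 on 1 one-colour array, and samples are named by the paired numbers of their titles, such as SHR 3-3. Nothing in the labels says that the samples came from separate animals, so p-values measure only the spread between these samples. A strain contrast of this kind differs in the whole genetic background, not in blood pressure alone.

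Rhesus glycoproteins are membrane channels related to the bacterial ammonium transporters, and they let ammonia cross the membrane. RhAG, encoded by Rhag, sits in the red cell membrane, where it is needed for the Rh blood group polypeptide (encoded by Rhd) to reach the surface. RhBG and RhCG are the forms of epithelia, best known from the acid-secreting cells of the renal collecting duct, where RhBG lies in the basolateral membrane.

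On each array, 94.8% to 97.7% of 42877 non-control spots passed the scanner software's test against background, and no spot was saturated (0 on every array). Each array was scaled to its 75th percentile of processed intensity, which ranged from 333 to 648. Arrays that share a scan time in the file headers are treated as 1 slide. By that reading SHR 2-3, 3-1, 3-3 and 3-4 shared slide 1; SHR 2-1 shared slide 2 with WKY 1-5, 4-1 and 4-2; and WKY 1-2 shared slide 3 with WKY 1-3. Array SHR 3-3 had both the lowest 75th percentile and the lowest mean correlation with its own strain. Many, but not all, of the values that it moves are given without it as well. Precision is limited by the 5 arrays per strain. A fit with the slide as a fixed block compares the strains only on slide 2, SHR 2-1 against WKY 1-5, 4-1 and 4-2. A gene can miss the threshold in that fit without having a smaller difference.

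The promoter of Rhag, the member that differed, is shown with that of Rhd, the other red cell member, which did not pass the test; they show which letters of motifs for red cell transcription factors the reference holds. Each is the 250 bases before the annotated start in RefSeq, from the reference rat (BN/NHsdMcwi), which is neither of the strains studied. Capitals mark letters matching the GATA motif (GATAAG) or the CACC box (CCNCACCC) on either strand.

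Rhag, GRCr8 chr9:27594391-27594640, minus strand: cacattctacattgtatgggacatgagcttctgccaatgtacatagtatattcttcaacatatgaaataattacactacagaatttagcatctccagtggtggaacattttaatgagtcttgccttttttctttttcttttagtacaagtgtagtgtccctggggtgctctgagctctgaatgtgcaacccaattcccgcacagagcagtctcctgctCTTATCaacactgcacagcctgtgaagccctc

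Rhd, GRCr8 chr5:152370950-152371199, plus strand: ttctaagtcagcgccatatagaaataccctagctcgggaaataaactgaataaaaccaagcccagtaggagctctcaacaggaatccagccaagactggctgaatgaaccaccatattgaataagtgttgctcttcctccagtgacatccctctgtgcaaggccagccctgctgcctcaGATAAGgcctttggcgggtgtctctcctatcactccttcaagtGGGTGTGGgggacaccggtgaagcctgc

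The Rhag window held 1 match to the GATA motif, on the opposite strand, 27 to 32 bases before the start. The Rhd window held 1 such match at 66 to 71 bases and 1 CACC box at 21 to 28 bases before the start. The Rhbg window held 1 CACC box, the Rhcg window held neither, and the forkhead motif (TGTTTAC) was in 0 of the 4. Over all 33469 promoter windows of that length, 6.18% held the GATA motif, 13.6% the CACC box and 3.21% the forkhead motif. The motifs were chosen after the values were known, and the matches are descriptions of the reference letters.

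Rhag was the member with a large strain difference. Its processed intensity was 1257 in SHR 2-1, 1723 in SHR 2-3, 1888 in SHR 3-1, 1115 in SHR 3-3 and 1369 in SHR 3-4. In WKY it was 86.6 in 1-2, 92.9 in 1-3, 174.9 in 1-5, 110.7 in 4-1 and 96.0 in 4-2. Every SHR array was high and every WKY array low, and the dimmest SHR spot was far brighter than the brightest WKY spot. After scaling, the log2 level of Rhag relative to the array's 75th percentile averaged 1.55 ± 0.15 in SHR and −2.31 ± 0.33 in WKY (SD, n = 5 per strain). The log2 difference, SHR minus WKY, was 3.86 ± 0.15 (SE), a 14.5-fold higher level. The lowest SHR value lay 8.99-fold above the highest WKY value.

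**Figure D1:**
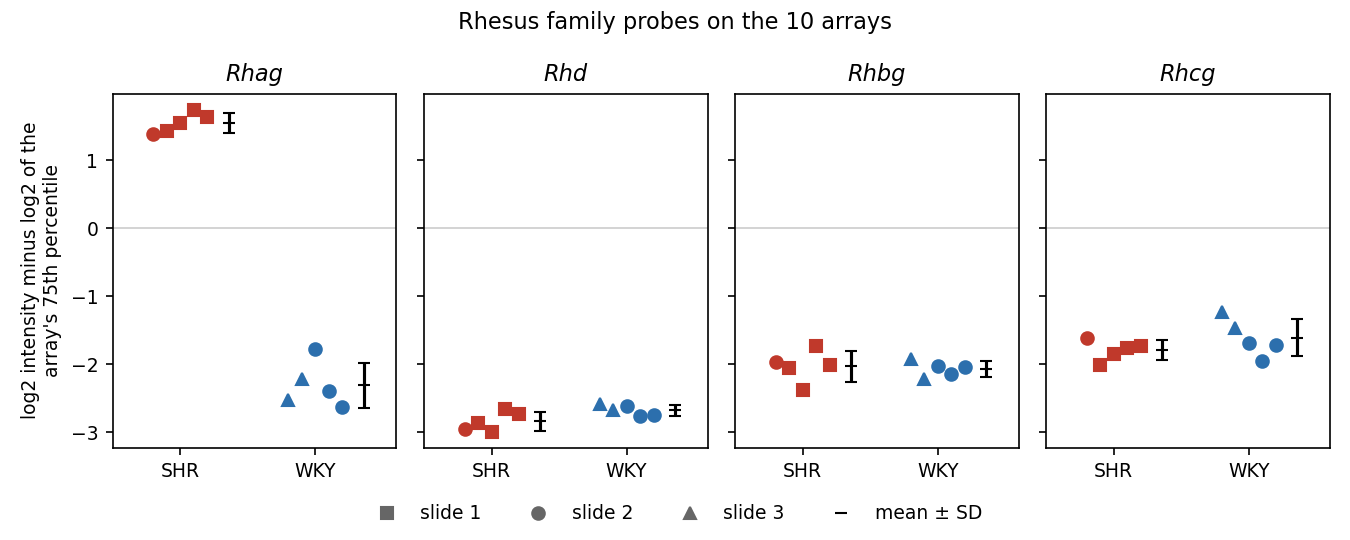
Log2 processed intensity minus the log2 of the array's 75th percentile for the 4 Rhesus family probes, with 1 point per array, the symbol giving the slide, and bars giving the mean ± SD of 5 arrays. Rhag averaged 1.55 in SHR and −2.31 in WKY with no overlap, while the points of Rhd, Rhbg and Rhcg overlapped between the strains.

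The WKY signal of Rhag was low, but the probe was well above background on all 5 SHR and all 5 WKY arrays. Between 94.8% and 97.7% of spots per array passed that test. It does not show how much of the WKY signal is Rhag RNA. Whether the fold is a lower bound was not tested. The Rhag spot was 47.8 to 222 times the highest of the 153 negative control spots on the same array in SHR, against 1.94 to 13.4 times in WKY. Within WKY the levels were uneven, with 1-5 highest at −1.78 and 4-2 lowest at −2.63. In SHR the scaled values ran from 1.38 (2-1) to 1.74 (3-3), a narrower range. SHR 3-3, the array that stood apart, was thus the highest SHR value of Rhag, and without it the difference was 3.81 (14.0-fold).

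The difference was also present on slide 2, which carried both strains. There SHR 2-1 stood at 1.38 and the 3 WKY arrays between −2.63 and −1.78 with a mean of −2.27, a difference of 3.65 (12.6-fold). Slide 1 held only SHR arrays, with a mean of 1.59 for Rhag, and slide 3 only WKY arrays, with a mean of −2.38, so strain and slide cannot be told apart there. In the authors' deposited table of log2 values, Rhag averaged 10.6 ± 0.10 in SHR and 6.67 ± 0.38 in WKY (SD, n = 5 per strain), which is 14.8-fold. With normexp background correction (offset 50) and quantile normalisation, the fold was 9.60, the lowest of 26 alternatives; the highest was 15.9, without WKY 1-5.

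The other red cell member, Rhd, which encodes the Rh blood group polypeptide, was a dim probe in both strains. Its scaled log2 values were −2.95 (2-1), −2.87 (2-3), −2.995 (3-1), −2.65 (3-3) and −2.74 (3-4) in SHR. In WKY they were −2.59 (1-2), −2.68 (1-3), −2.62 (1-5), −2.76 (4-1) and −2.75 (4-2). The strains overlapped, though the 3 lowest values were all from SHR and the 2 highest from WKY. The log2 difference was −0.16 ± 0.09 (SE; limma adjusted p = 0.329), and its 95% interval, −0.35 to 0.03, reached at most a 1.28-fold change.

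Rhbg, the basolateral epithelial form, had scaled log2 values of −1.97 (2-1), −2.06 (2-3), −2.38 (3-1), −1.74 (3-3) and −2.01 (3-4) in SHR. In WKY they were −1.92 (1-2), −2.23 (1-3), −2.03 (1-5), −2.14 (4-1) and −2.04 (4-2). The SHR arrays lay on both sides of the WKY arrays. The log2 difference was 0.04 ± 0.11 (SE; limma adjusted p = 0.873) with a 95% interval of −0.21 to 0.29, at most 1.22-fold. SHR 3-3 was the highest value, and without it the difference was −0.03.

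Rhcg, the other epithelial form, had scaled log2 values of −1.62 (2-1), −2.02 (2-3), −1.85 (3-1), −1.76 (3-3) and −1.73 (3-4) in SHR. In WKY they were −1.23 (1-2), −1.47 (1-3), −1.69 (1-5), −1.96 (4-1) and −1.72 (4-2). The 2 highest values were the WKY arrays of slide 3, and the rest overlapped. The log2 difference was −0.18 ± 0.13 (SE; limma adjusted p = 0.456), with a 95% interval of −0.47 to 0.10, at most 1.39-fold. On slide 2 alone it had the other sign, with SHR 2-1 at −1.62 and a WKY mean of −1.79, a difference of 0.17.

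None of Rhbg, Rhcg and Rhd passed the limma test (0 of 3 at an adjusted p below 0.05; 0 also at an unadjusted p below 0.05), beside 4.36% of the 14711 genes tested, 1.51% higher and 2.85% lower in SHR. The strains did not overlap for 1 of the 4 members, Rhag, beside 7.25% of all genes; since the family was chosen for Rhag, nothing is read from that count. The spread within strains differed among members: the SD in SHR and WKY was 0.14 and 0.08 for Rhd, 0.23 and 0.12 for Rhbg, and 0.15 and 0.28 for Rhcg. Their intervals end far below the fold of Rhag, but do not show that the strains have equal levels. In gland RNA, a change in the number of cells that express a gene and a change in RNA per cell cannot be told apart.

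Because Rhag is a red cell gene and a gland sample holds blood, the red cell genes were read beside it. Of 34 listed genes of erythroid cells and the red cell membrane, 24 were tested, and all 24 were well above background on all 10 arrays. Their median log2 difference was 0.00, beside −0.02 over all genes, and 0 rose, 1 fell and 23 did not pass the limma test. That is 4.17% called, beside 4.36% of all genes, and 3 had an unadjusted p below 0.05, beside 20.3% of all genes. Their summed level, in percent of each array's 75th percentile, had a lowest value, median and highest value of 3090, 4774 and 8617 in SHR and of 3038, 4642 and 8425 in WKY. The summed red cell signal spread widely among the arrays of each strain, and the 2 ranges nearly coincided. The sum is linear, so bright genes such as the haemoglobin genes Hbb and Hba-a1 weigh heavily in it. Their SHR medians were 3.94 and 3.84 on the scaled log2 values, against −2.64 for Alas2. Whether blood content plays a part in the Rhag difference was not tested.

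**Figure D2:**
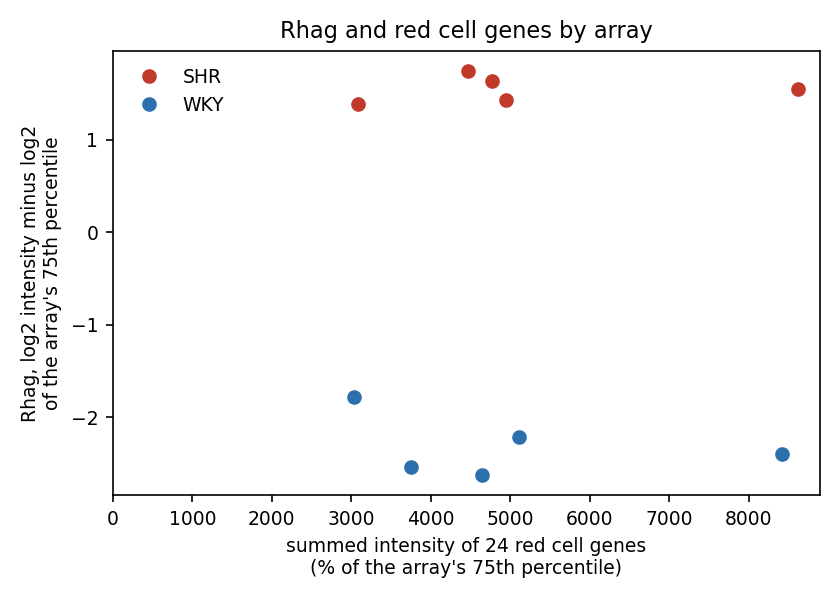
Scaled log2 level of Rhag against the summed intensity of 24 red cell genes in percent of the array's 75th percentile, with 1 point per array. Along the red cell axis SHR (3090 to 8617) and WKY (3038 to 8425) cover nearly the same range, whereas on the Rhag axis all SHR points lie above all WKY points.

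Defining genes of the red cell lineage, named for that role and not by the rule on size, did not pass the test. Hbb, a beta chain of haemoglobin, ran from 2.95 to 4.89 with a median of 3.94 in SHR and from 2.90 to 4.98 with a median of 3.69 in WKY (log2 difference 0.14 ± 0.39 SE, limma adjusted p = 0.880). Slc4a1, the anion exchanger band 3 to which the Rhesus complex is attached in red cells, had a difference of −0.15 ± 0.11 (adjusted p = 0.462). Alas2, the erythroid enzyme of haem synthesis, differed by −0.13 ± 0.11 (0.522). The erythroid transcription factor genes Gata1 and Klf1 differed by 0.00 ± 0.13 (adjusted p = 0.9998) and 0.17 ± 0.09 (0.308).

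The red cell gene that fell was Kel, which encodes the Kell blood group metalloprotease. Its scaled log2 values were −3.27 (2-1), −3.41 (2-3), −3.36 (3-1), −3.23 (3-3) and −3.21 (3-4) in SHR. In WKY they were −1.50 (1-2), −1.85 (1-3), −1.84 (1-5), −2.92 (4-1) and −2.96 (4-2). All SHR arrays were lower than all WKY arrays. Within WKY the 3 arrays with first title number 1 were high and the 2 with first title number 4 were low. The log2 difference was −1.08 ± 0.26 (SE; limma adjusted p = 0.0348). Kel did not pass when any 1 of 7 arrays was left out (each SHR array but 3-3, and WKY 1-2, 1-3 and 1-5), with its adjusted p reaching 0.0992, nor with the slide as a fixed block, where the difference was −0.70. Xk, whose product is bound to the Kell protein in the red cell membrane, differed by −0.09 ± 0.11 (adjusted p = 0.7103).

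Genes of ionocytes and renal intercalated cells, the epithelial cells in which RhBG and RhCG are best known, were read next. Of 24 listed, 20 were tested, and 0 rose and 0 fell in the limma test, beside 4.36% of all genes called. An unadjusted p below 0.05 was found for 5, beside 20.3% of all genes. The median log2 difference was −0.22, beside −0.02 over all genes, and 17 of the 20 differences were negative. Array SHR 3-3 moves with this: its list value was −0.72 relative to the WKY mean, the lowest of the 10 arrays. Without that array the median was −0.11 and 1 member was higher past the threshold. The fit without it called 721 genes in all, against 641 of 14711 with every array. Bsnd, the barttin subunit of chloride channels, and Foxi1, the transcription factor that sets the identity of these cells, had the largest differences, −0.56 ± 0.40 (SE; adjusted p = 0.452) and −0.52 ± 0.42 (0.523). Without SHR 3-3 the differences were −0.09 for Bsnd and −0.03 for Foxi1. In SHR 3-3 Foxi1 stood at −1.11, against 0.90 to 1.56 in the other SHR arrays and 1.14 to 1.64 in WKY. Another Foxi1 probe differed by −0.37 ± 0.15 (adjusted p = 0.198). Rhcg and Rhbg in SHR 3-3, at −1.76 and −1.74, were not low beside the other SHR arrays. The part of SHR 3-3 in the list's value was not tested further.

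Other proteins that carry ammonia or ammonium did not pass in either direction. Of 19 listed aquaporins, potassium and proton carriers and urea channels, 18 were tested; 0 rose and 0 fell in the limma test, beside 4.36% of all genes called, and 3 had an unadjusted p below 0.05, beside 20.3%. The median log2 difference was 0.02. Slc9a2, a sodium-proton exchanger gene, had a log2 difference of −0.38 ± 0.18 (SE; limma adjusted p = 0.265), and of −0.20 without SHR 3-3.

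Among enzymes that release or bind ammonia, 36 of 37 listed were tested, with a median log2 difference of 0.00; 1 rose, 0 fell and 35 did not pass. That is 2.78% called, beside 4.36% of all genes, and 7 had an unadjusted p below 0.05, beside 20.3%. The one that rose was Gnpda2, a glucosamine-6-phosphate deaminase, whose reaction frees ammonia. It lay between −2.91 and −2.06 with a median of −2.39 in SHR and between −3.47 and −3.01 with a median of −3.21 in WKY, without overlap. The log2 difference was 0.76 ± 0.15 (SE; limma adjusted p = 0.0116). With the slide as a fixed block it was 0.70, not past the threshold, and the call held without each single array.

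Of 43 genes that handle acid and bicarbonate in epithelia, 41 were tested, with a median log2 difference of −0.06. Of these 1 rose, 1 fell and 39 did not pass, 4.88% called beside 4.36% over all genes. An unadjusted p below 0.05 was found for 11, beside 20.3% of all genes. Gpr4, a receptor that senses protons, rose by 0.65 ± 0.16 (SE; limma adjusted p = 0.0374). It averaged −3.10 ± 0.31 in SHR and −3.75 ± 0.24 in WKY (SD, n = 5 per strain), with strains that overlapped, and lost its call without any 1 of 7 of the 10 arrays (SHR 2-1, 2-3, 3-3 and 3-4, WKY 1-3, 4-1 and 4-2; adjusted p up to 0.104). Slc4a4, the sodium bicarbonate cotransporter, fell by 0.47 ± 0.10 (adjusted p = 0.0176), without overlap between strains, a call lost without WKY 1-2 (0.0555). Another Slc4a4 probe differed by −0.35 ± 0.10 (adjusted p = 0.0663). Neither Gpr4 nor Slc4a4 passed with the slide as a fixed block, which rests on SHR 2-1 as its only SHR array. The differences there were 0.81 for Gpr4 and −0.34 for Slc4a4.

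Markers of the gland's own epithelium were set beside these lists. Among duct genes 0 of 14 tested rose and 0 fell in the limma test, beside 4.36% of all genes called, and 2 had an unadjusted p below 0.05, beside 20.3%. The duct median was 0.03. Egf, a growth factor of granular ducts, had a difference of −0.96 ± 0.74 and Scnn1g, a subunit of the epithelial sodium channel, one of −0.60 ± 0.44. Without SHR 3-3 they were −0.10 for Egf and −0.10 for Scnn1g. The duct median without that array was 0.07, and 2 members were higher past the threshold. That fit called 721 genes in all, against 641 of 14711 with every array. Among acinar genes 1 of 13 rose and 3 fell, 30.8% called beside 4.36% of all genes, with a median of 0.20. An unadjusted p below 0.05 was found for 8, beside 20.3% of all genes. The list was chosen with earlier results of these data known, so nothing is read from these shares. Smgc (−4.10 ± 0.35), Cyss (−4.06 ± 0.34) and Prpmp5 (−1.73 ± 0.15), all secretory products, fell, and Oprpn, the opiorphin precursor gene, rose by 0.61 ± 0.15. With the slide as a fixed block Prpmp5 (−1.66) and Oprpn (0.46) did not pass. Oprpn lost its call without any 1 of 8 arrays, SHR 3-1 and 3-3 being the exceptions, and its difference was 0.14 with quantile normalisation, 0.09 with normexp and 0.16 in the authors' deposited values. Without SHR 3-3 the acinar median was 0.02.

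**Figure D3:**
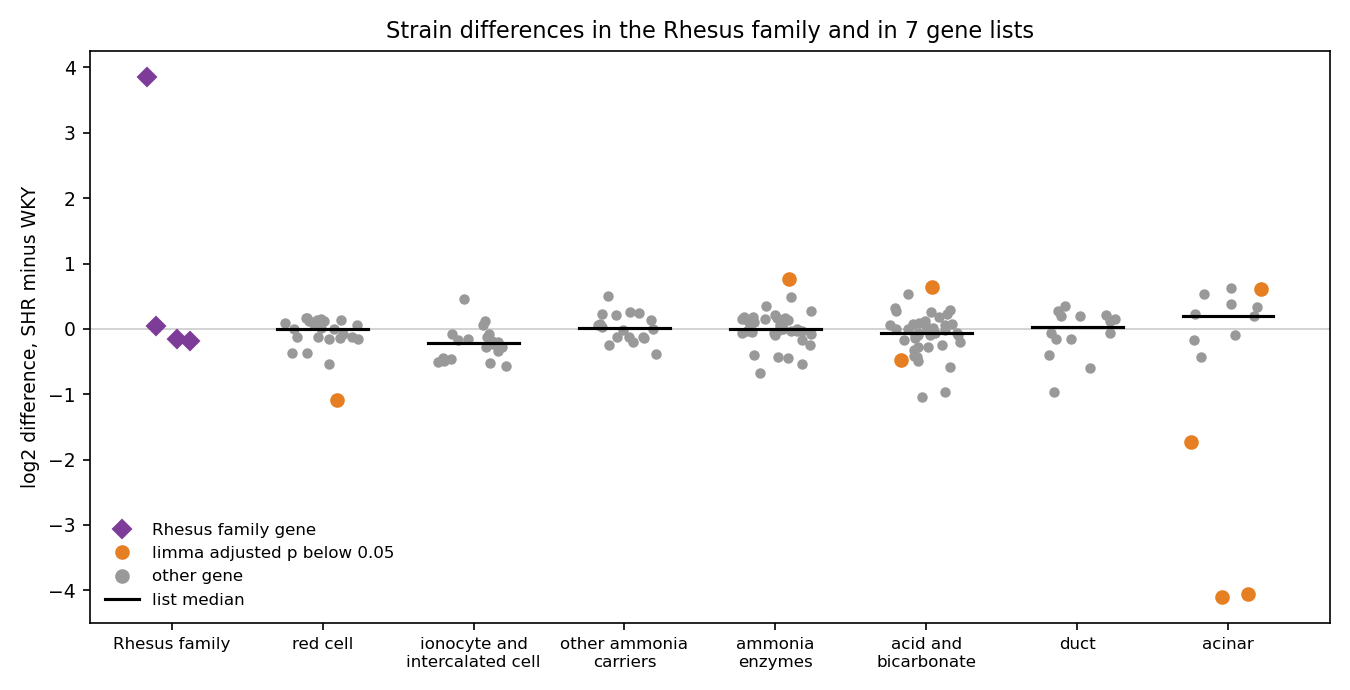
Log2 difference, SHR minus WKY, of the 4 Rhesus family genes and of the tested members of 7 gene lists, with 1 point per gene and a bar at each list median. Rhag stands at 3.86 and the 3 other Rhesus genes near 0, while the medians of the lists lie between −0.22 and 0.20 and few members pass the limma threshold.

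The genes next to each Rhesus gene were read to see whether the strain difference of Rhag was shared along the chromosome. The 5 nearest protein-coding genes on each side of each member in the RefSeq table gave 40 genes, 28 on the array by accession and 27 tested. In the limma test 0 of the 27 passed, beside 4.36% of all genes called, and 5 had an unadjusted p below 0.05, beside 20.3% of all genes. Around Rhag only 5 of the 10 were tested, and neither directly adjacent gene, Cyp2ac1 or Crisp2, was among them. Whether those share the difference of Rhag was not tested. Of the tested genes, Cenpq (a centromere protein, −0.18), Glyatl3 (an acyltransferase-like gene, 0.10), C9h6orf141 (−0.03) and Pgk2 (the testis form of phosphoglycerate kinase, −0.09) had small log2 differences. The other tested neighbour, Crisp3, a cysteine-rich secretory protein gene, differed by −0.60 ± 0.16 (SE; adjusted p = 0.0588), the opposite direction to Rhag. It lay between −3.32 and −2.49 with a median of −2.75 in SHR and between −2.46 and −1.82 with a median of −2.31 in WKY, without overlap. Crisp3 passed without SHR 2-1 (−0.68, adjusted p = 0.0385), with array weights (0.0490) and with a random block for slide (0.00264) or first title number (0.0167).

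Around Rhcg the largest differences were those of Pex11a, a peroxisome membrane protein, at 0.45 ± 0.20 (SE; adjusted p = 0.233), and of Polg, the mitochondrial DNA polymerase, at 0.42 ± 0.12 (0.0611), which passed without WKY 4-2 (0.0326) and with those random blocks (0.00319 and 0.0147). The other tested neighbours of Rhcg, which are Abhd2, Rlbp1, Kif7 and Wdr93, lay between −0.30 and 0.09. Around Rhd, the differences of Mtfr1l, Man1c1, Maco1, Tmem50a, Rsrp1, Syf2, Runx3 and Clic4 ran from −0.20 to 0.35, with Tmem50a the highest (0.21 without SHR 3-3). Rsrp1 differed by 0.06, and by −0.14 without SHR 3-3. Around Rhbg, those of Gpatch4, Iqgap3, Mef2d, Tsacc, Cct3, Glmp and Tmem79 ran from −0.18 to 0.26, with Gpatch4 the highest (0.10 without SHR 3-3).

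**Figure D4:**
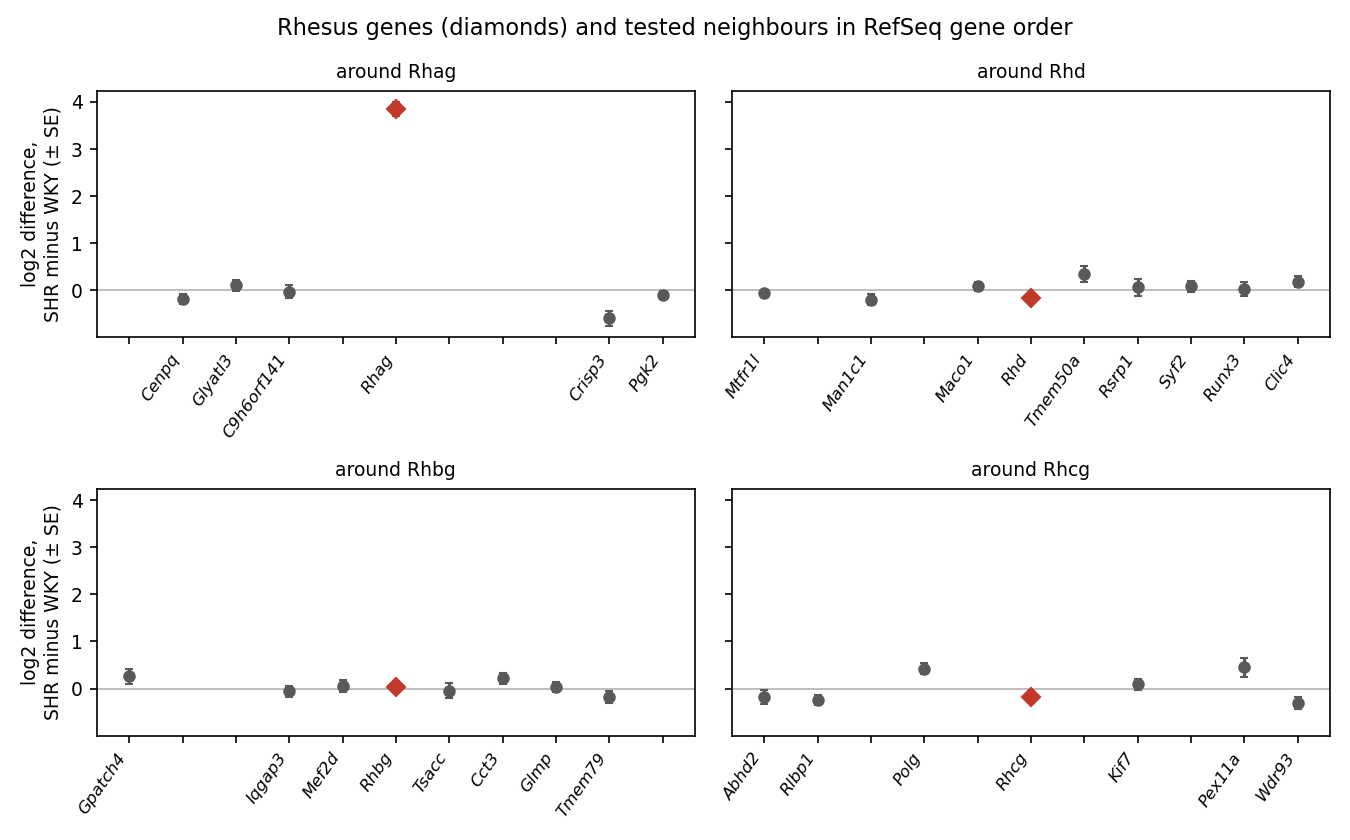
Log2 difference, SHR minus WKY, with its SE for each Rhesus gene (diamond) and its tested neighbours (circles) in RefSeq gene order, where a tick without a name is a neighbour not tested or not reported here. Rhag stands at 3.86 and its tested neighbours lie from −0.60 to 0.10, though neither gene directly next to Rhag was tested. The other 3 Rhesus genes lie among their neighbours.

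Over the 10 arrays the genes most like Rhag in their scaled log2 values were Setd4 (Pearson r = 0.993), Agtrap (0.992), Cbr1 (0.987), Slc16a4 (0.984) and Rtel1 (0.984). The values of Rhag fall into 2 clusters, the strains, so these r mostly restate a strain difference in the same direction: the log2 differences were 2.36, 3.72, 6.16, 3.36 and 1.57. Another probe of Rtel1 had a difference of −0.54. Over deviations from the strain means (n = 10 arrays), which leave the strain difference out, other genes came first: Prom2 (0.912), Galk2 (0.901), Nrtn (0.886), Polr2e (0.881) and Fcgr2a (0.876). Scaling and array quality are shared by all genes of an array, so likeness over so few arrays is a description only. The r values for Rhag and for the other members were not computed without SHR 3-3.

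The same measure gave Sash3 (r = 0.971), Ctag2l1 (0.968), Hif1an (0.966), Ckap4 (0.965) and Trank1 (0.963) for Rhbg. For Rhcg it gave Ltc4s (0.951), Limk2 (0.947), Or2t35 (0.940), Chga (0.937) and Dedd (0.927). For Rhd it gave Aurkaip1 (0.978), Rps29 (0.962), Ptgdr2 (0.960), Epop (0.959) and Fmc1 (0.949).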

How the data were processed

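Total RNA was amplified, labelled with Cy3 and hybridised to Agilent rat arrays, per the labels. The deposited scanner files were written by Feature Extraction 11.0.1.1, per the file headers; their processed intensity is linear, with background subtracted and spatial trends removed. The authors also deposited log2 values for 30423 probes, made by steps no source here describes, whose r with log2 intensity was at least 0.999 on each array. Here log2 intensity was reduced by the log2 of the array's 75th percentile, outlier-marked spots were set to missing, and 29266 probes were kept that passed the background test on 5 or more of the 10 arrays. RefSeq accessions (GRCr8) named 18005 probes, and the brightest kept probe stood for each of 14711 genes. SHR minus WKY was fitted with limma (lmFit and eBayes, no covariates, two-sided, Benjamini-Hochberg over all genes, threshold 0.05), and the fit was tested on simulated data. Members, lists, tests and the rule for named genes were chosen with earlier results of these data known. Named are all members, tested neighbours, per list up to 4 called genes (2 where none passed), and the 5 genes most alike; red cell genes and Xk were added as defining genes. Among genes this rule names, 2 are not reported here. Alternatives covered background correction, normalisation, filters, probe choice, array weights, slide and title-number blocks, and leaving out each array. Normexp used the median signal. R 4.3.3 and limma 3.58.1 were used for the fits, with Python 3.11.15 for promoters and figures.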

Additional observations from a re-analysis of the deposited data

Results flagged for a closer look

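In Dixon's test of the most distant array within each strain, 6 of 154 groups of 5 values passed the critical value, where chance flags about 1 in 20, and in all 6 the distant array was SHR 3-3. None of the 4 Rhesus genes was among them. In SHR 3-3 the scaled log2 value was 5.47 for Rsrp1, a neighbour of Rhd (mean of the other 4 SHR arrays 4.49), 0.73 for Egf (5.04), −1.33 for Bsnd (1.04) and −1.11 for Foxi1 (1.34). The list value relative to the WKY mean was −0.40 for duct genes (other SHR arrays 0.08) and −0.72 for ionocyte and intercalated cell genes (−0.07).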

How the results depend on the processing

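Rhag stayed above 9-fold under all 26 alternatives, but not all of them could move it. Filters, probe choice, outlier marks and the variance trend left its log2 difference at 3.86. The slide as a fixed block and slide 2 alone gave the same value, 3.65. With normexp the log2 difference of Rhag was 3.26, and without single arrays it ran from 3.78 to 3.99. Rhbg ran from −0.0308 to 0.128 without single arrays, changing sign without SHR 3-3. Rhcg was 0.17, the other sign, with the slide as a fixed block and on the slide with both strains alone. Both rest on SHR 2-1 as the only SHR array. No alternative brought Rhbg, Rhcg or Rhd past the threshold. The number of genes called, 641, was 44 with the slide as a fixed block, 52 on that slide alone, 3451 with slide as a random block and 1779 with a random block for the first number of the title (estimated correlations −0.19 and −0.16), and 338 (without WKY 1-3) to 721 (without SHR 3-3) without single arrays. It was also 368 without WKY 1-2 and 411 without WKY 4-1. Neighbours called were 8 and 2 with those random blocks, 1 with array weights and 0 to 1 without single arrays. The acid and bicarbonate median was −0.0257 with median scaling, −0.0227 with detection on all arrays, −0.0206 with the fixed block and on that slide alone, and −0.0644 to −0.0133 without single arrays. The acinar median was 0.0038 with normexp, 0.0708 with quantile normalisation, 0.0824 with the authors' values, 0.0661 with array weights and 0.0226 to 0.260 without single arrays. The ammonia carrier median was 0.0837 with quantile normalisation, 0.0844 with the authors' values and −0.0446 with the mean of probes. The ammonia enzyme median was 0.0482 with quantile normalisation, 0.0487 with the authors' values and −0.0134 to 0.0477 without single arrays. The red cell median ran from −0.102 to 0.0245 without single arrays. The causes were not tested. No full title number is shared between the strains, but the second numbers 1 and 3 are, with nothing in the labels to say that they mark pairs. A fit with the second number as a replicate block, chosen after seeing the data, called 82 genes, gave a red cell median of −0.116 and a Rhag difference of 3.83, and left Kel, Gnpda2, Gpr4, Slc4a4 and Oprpn short of the threshold.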
